A study of Mus musculus with 16 samples.

Results

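Neurofilament subunits, microtubule proteins and growth cone proteins give a neuron its shape, and 10 of the genes that encode them were followed here in mouse hippocampal neurons exposed to human apolipoprotein E isoforms. The genes were taken by symbol: Nefl, Nefm, Nefh and Ina for the neuronal intermediate filaments, Map2, Map1b and Tubb3 for microtubules, and Dcx, Stmn2 and Gap43 for neurite growth. All 10 were present among the 48397 symbols counted, and all 10 were among the 17038 that passed the filter on low counts. The neurons came from newborn CD1 pups (P0 to P2), were treated with cytosine arabinoside against dividing cells, and received astrocyte-conditioned medium, concentrated 10-fold, at 10 and 13 days in vitro (DIV) before RNA was taken at 17 DIV. The medium of control neurons was conditioned by immortalized Apoe-/- astrocytes, and that of the apoE2, apoE3 and apoE4 neurons by immortalized astrocytes from mice homozygous for the human APOE ε2, ε3 or ε4 allele put in place of the mouse gene. No gene was altered in the neurons themselves, and what differed between groups was the whole medium of an immortalized astrocyte line, apoE included. Each group held 4 libraries of ribosomal RNA-depleted total RNA, 16 in all, numbered 1 to 4 in the labels, and the 4 libraries that share a number are called a set below. The comparisons ask how far the isoforms differ from apoE-free medium and from each other in the expression of genes that build axons and dendrites.

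Neurofilaments are heteropolymers of a light (Nefl), a medium (Nefm) and a heavy (Nefh) subunit with α-internexin (Ina), and they set the calibre of axons. Microtubules are polymers of α- and β-tubulin. Tubb3 is the neuronal β-tubulin, MAP2 stabilises microtubules in dendrites, and MAP1B and doublecortin (Dcx) act on microtubules of young and migrating neurons. Stathmin-2 (Stmn2) binds tubulin in growth cones, and GAP-43 is a membrane protein of growth cones and presynaptic terminals that is widely used as a marker of axon growth. Apolipoprotein E carries lipids between cells in the brain, where astrocytes are its main source.

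The libraries held 14087723 to 34248172 counts on genes (median 22221832). Another 38.4% to 73.7% of the reads counted fell on no single gene. Lars2, a mitochondrial tRNA synthetase gene, took 0.359% of the gene counts in apoE4 replicate 2 and 15% in apoE2 replicate 1, so the members are also given with each library left out where that ended a call. Their own counts ran from 395 for Nefh in its lowest library to 87864 for Map2 in its highest. Values are CPM, counts per 1000000 counts of the library, on library sizes scaled by edgeR's TMM. The neuronal markers that are no members (Rbfox3, Snap25, Syt1, Syp, Eno2, Elavl4 and Thy1) summed to 1382 to 4181 CPM, as the label of neuronal cultures has it, and the 10 astrocyte markers summed to 1329 to 6687 CPM, so these were detected in every library as well. In such bulk RNA, fewer neurons and less of a transcript per neuron cannot be told apart.

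Per kb of exon, Gap43 had the highest mean level in all 4 groups. In control neurons it reached 231 ± 66.4 CPM per kb (SD, n = 4), followed by Nefl at 196 ± 97.7, Tubb3 at 196 ± 59.5 and Map2 at 123 ± 22.7. Stmn2 and Map1b lay at 84.9 ± 18.9 and 84.4 ± 6.79 CPM per kb, and Ina at 34.5 ± 3.67. The other 3 were lower, with Nefm at 13.8 ± 5.55, Nefh at 10.8 ± 1.11 and Dcx, a gene of immature neurons, at 7.04 ± 2.74 CPM per kb. The ranges over the 4 control libraries overlapped between every pair of neighbours in this order except Map1b with Ina and Ina with Nefm. Among the filament subunits, the light chain thus had the highest level on this measure and the medium and heavy chains the lowest. Nefl and Nefm share exon bases, as given below, so their levels are uncertain to that extent. The order in the treated groups was the same except that Tubb3 stood above Nefl in all 3 and Map1b above Stmn2 with apoE4, pairs whose ranges overlapped in control neurons too. Exon lengths are the union of all exons of a gene in the GENCODE M21 models on GRCm38 (mm10), from 1523 bases for Gap43 to 16449 for Map2. A union can be longer than the transcript expressed, so the order is one of CPM per kb and not of mRNA copies.

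**Figure D1:**
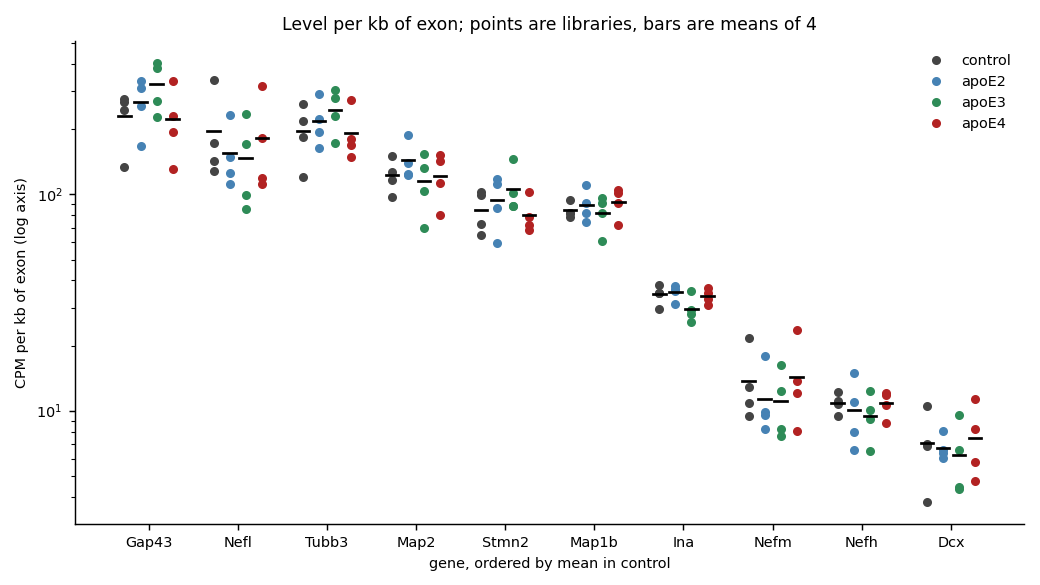
Levels of the 10 genes in CPM per kb of exon, on a log axis, for the 4 libraries of each group (points) and their mean (bars). Gap43, Nefl, Tubb3 and Map2 lie between 69.8 and 407 CPM per kb, and Nefm, Nefh and Dcx between 3.8 and 23.5.

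The set a library belonged to accounted for most of the variation of most members. On the log2 CPM scale, 87.6% of the variance of Nefl over the 16 libraries lay between sets and 7.86% between groups, and for Nefm these shares were 83.6% and 9.16%. The share between sets was 74.5% for Tubb3, 72.8% for Map2, 70.6% for Gap43, 70.5% for Dcx, 60.3% for Stmn2, 58.7% for Nefh and 45.7% for Map1b, against a median of 56.1% over all genes tested. Ina was the exception, with 22.4% between sets, 36.8% between groups and 40.8% in neither. The medians over all genes were 14.4% between groups and 23.6% in neither. Ina passed at an adjusted p under 0.05 in no comparison, with or without the sets in the fit.

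The sets did not order the members alike. Nefl averaged 952 CPM in set 3 (791 to 1150) and 376 CPM in set 4 (291 to 436), a 2.53-fold range without overlap, and Nefm (115 against 48.3 CPM) and Map2 (2622 against 1528 CPM) were likewise highest in set 3 and lowest in set 4. Tubb3, Stmn2 and Gap43 were highest in set 2 and lowest in set 1, with Gap43 at 504 CPM (410 to 584) against 252 CPM (199 to 349). Dcx ran the other way from Nefl and Nefm, at 125 CPM in set 4 and 61.4 CPM in set 3, a 2.03-fold difference. Nefh was highest in set 1 (47.6 CPM) and lowest in set 4 (31.3 CPM), and Ina, at 103 to 118 CPM over the sets, was highest in set 2.

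**Figure D2:**
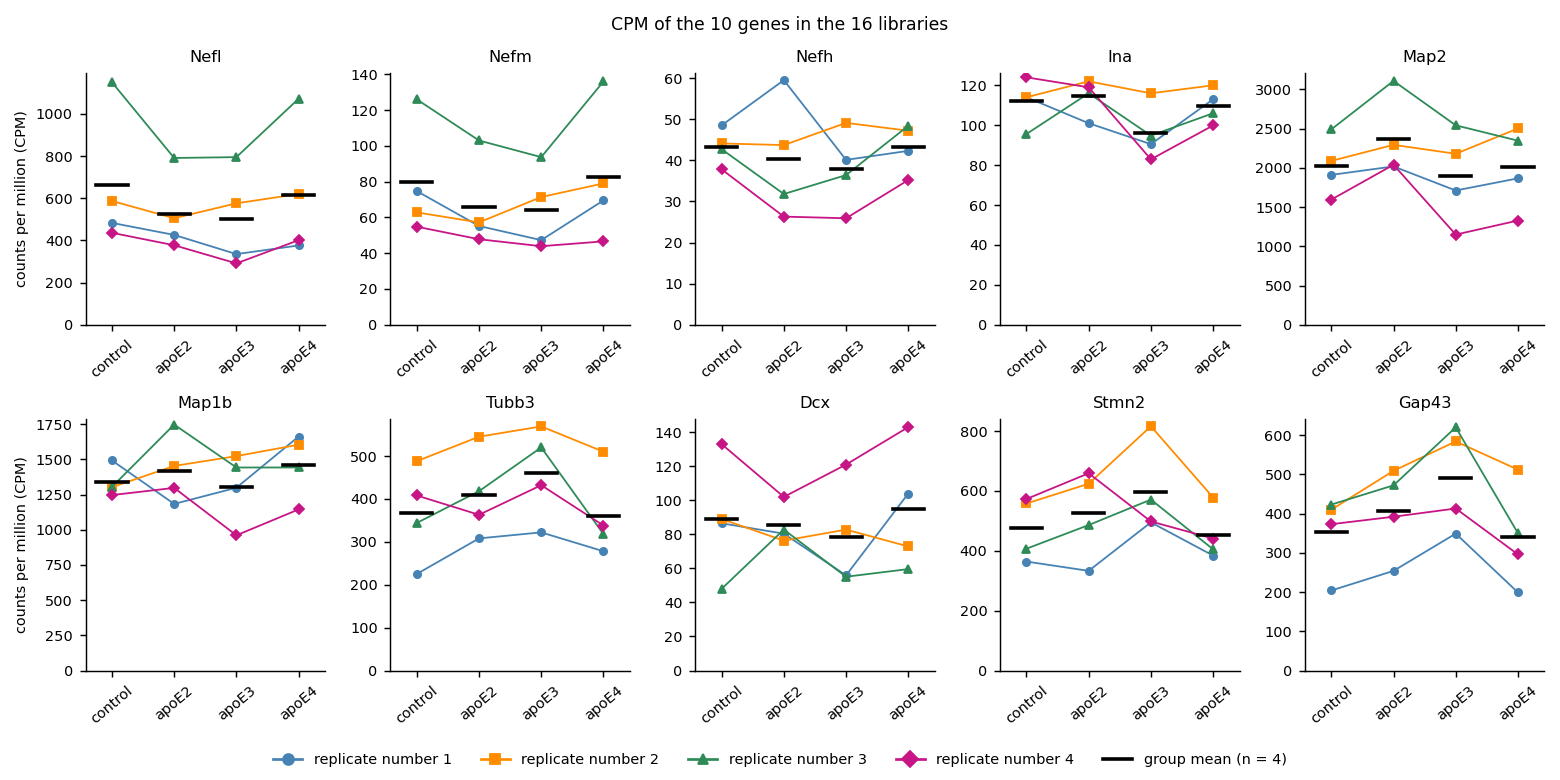
CPM of each gene (axes start at 0) in the 16 libraries, with lines joining the libraries that share a replicate number and black bars for group means (n = 4). Lines of 1 colour stay together across groups, as for Nefl, where set 3 is on top at 791 to 1150 CPM, and for all genes but Ina the sets hold a larger share of the variance than the groups do.

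In the fit without the sets, edgeR's quasi-likelihood test with Benjamini-Hochberg adjustment over 17038 genes passed 0 of the 10 members at an adjusted p under 0.05 in all 6 comparisons. At an unadjusted p under 0.05 it passed 1 member in apoE3 against apoE2 (Ina, −0.25 on the log2 scale) and 0 in the other 5, and DESeq2 passed 0 in all 6. The background was as sparse: the share of all genes that passed was 0% for apoE2, 0.00587% for apoE3 and 0.194% for apoE4 against control, 0.147% for apoE4 against apoE3, 0.252% for apoE4 against apoE2 and 0% for apoE3 against apoE2. In the 2 comparisons with 0 calls, 475 genes (apoE2 against control) and 389 genes (apoE3 against apoE2) had an unadjusted p under 0.05, and DESeq2 passed 29 and 9. No member differed by 2-fold between any groups, and the group ranges of every member overlapped in every comparison. The largest difference of means was for Gap43, at −0.54 on the log2 scale in apoE4 against apoE3, with a 95% interval of −1.19 to 0.12.

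Because libraries of 1 set tended to deviate together, least so in set 1, the set was also entered as a replicate block, which compares groups within sets. With the block, 3 of 10 members passed in apoE3 against control, where 11.7% of all genes passed, and 1 of 10 in apoE4 against apoE3, where 1.77% passed. In apoE2 against control 0 of 10 passed (1.73% of all genes), and in apoE4 against control 0 of 10 (3.3%). The same held for apoE4 against apoE2 (0 of 10, 4.44% of all genes) and apoE3 against apoE2 (0 of 10, 1.31%). Unadjusted, 6 members had p under 0.05 in apoE3 against control, 5 in apoE4 against apoE3, 3 in apoE3 against apoE2, 2 each in apoE2 against control and apoE4 against apoE2, and 0 in apoE4 against control. Of all 17038 genes, 4680, 2770, 2712, 2273, 3064 and 2828 had p under 0.05 in these comparisons, in the same order. DESeq2 with the block also passed 0 in the 4 comparisons without calls and 3 in apoE3 against control, but 2 in apoE4 against apoE3, where it added Tubb3 to Gap43. Over all 17038 genes it passed 2687 in apoE3 against control and 703 in apoE4 against apoE3, where edgeR passed 1990 and 301. The 3 comparisons with control share its 4 libraries, so their values are set side by side and not counted as separate evidence. The 3 members that passed with apoE3 were Gap43 and Tubb3, which were higher (7.95% of all genes passed in this direction), and Nefl, which was lower (3.73%).

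**Figure D3:**
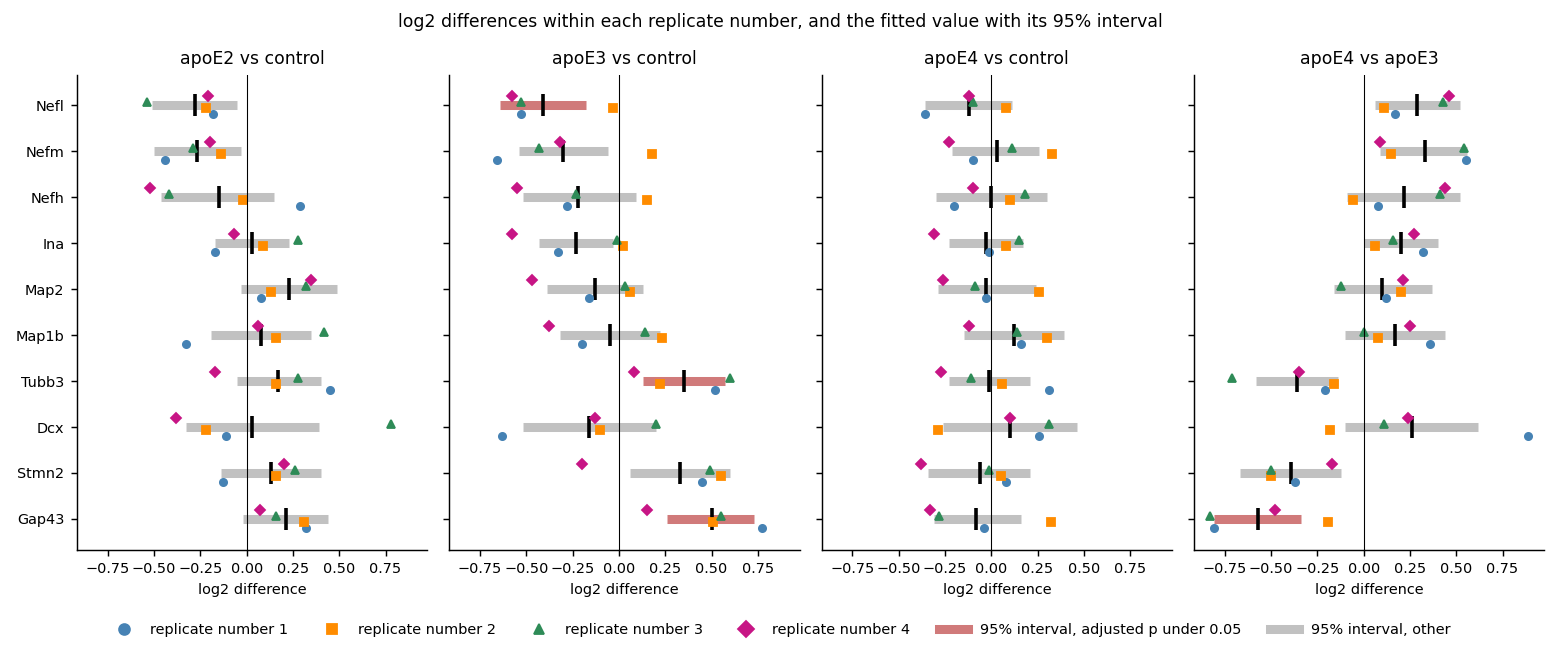
log2 difference of each gene within each replicate number (coloured points), the value fitted with the replicate block (black tick) and its 95% interval (bar, red where the adjusted p is under 0.05), for 4 comparisons. Gap43 and Tubb3 lie to the right and Nefl to the left of 0 with apoE3 in all 4 sets, and all 10 intervals cross 0 with apoE4 against control.

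Gap43 lies on chromosome 16 (42248442 to 42340651, minus strand, GRCm38) and had the smallest p of the members. Its CPM in sets 1 to 4 were 204, 410, 423 and 373 in control, 254, 509, 472 and 392 with apoE2, 349, 584, 620 and 413 with apoE3, and 199, 512, 350 and 296 with apoE4. In each set the apoE3 library was the highest of the 4, set 1 was the lowest set in each group, and the groups overlapped. With the block, Gap43 was 1.41-fold higher with apoE3 than in control (log2 0.50, SE 0.11, adjusted p = 0.00994), by 0.77, 0.51, 0.55 and 0.15 on the log2 scale in sets 1 to 4. Without the block the same difference was 0.48 with an SE of 0.31 (adjusted p = 0.806). The call was lost when set 1 (adjusted p = 0.132), set 3 (0.0683), control replicate 1 (0.0615) or apoE3 replicate 1 (0.0539) was left out. With apoE2 the difference from control was 0.21 (interval −0.02 to 0.44, adjusted p = 0.448), higher in 4 of 4 sets, and with apoE4 it was −0.08 (interval −0.31 to 0.16, adjusted p = 0.78), higher in 1 of 4.

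Between isoforms, Gap43 was 1.49-fold lower with apoE4 than with apoE3 in the blocked fit (log2 −0.57, SE 0.11, adjusted p = 0.014), with differences of −0.81, −0.19, −0.83 and −0.48 in sets 1 to 4. Without the block, the adjusted p was 1.00. This call was lost without set 1 or set 3 (adjusted p 0.184 and 0.238) and without any 1 of apoE3 replicates 1 and 3 and apoE4 replicates 1, 3 and 4 (adjusted p 0.0513 to 0.091), at −0.71 to −0.49 over the 23 alternatives run with the block. ApoE3 against apoE2 gave 0.29 for Gap43 (adjusted p = 0.214), higher in 4 of 4 sets, and apoE4 against apoE2 gave −0.29 (adjusted p = 0.174), so a difference between apoE2 and either of the other isoforms was not shown.

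Stmn2, the growth cone stathmin (chromosome 3, 8509360 to 8561606, plus strand), gave values that did not pass the test. Its CPM in sets 1 to 4 were 364, 558, 407 and 573 in control, 333, 624, 486 and 659 with apoE2, 495, 816, 571 and 498 with apoE3, and 384, 578, 405 and 441 with apoE4. The apoE3 library was above control in sets 1 to 3 and below it in set 4. The blocked value was 0.33 with apoE3 (interval 0.06 to 0.60, adjusted p = 0.109) and −0.39 for apoE4 against apoE3 (interval −0.67 to −0.12, adjusted p = 0.146, lower in 4 of 4 sets). Dcx (X chromosome, 143855842 to 143933311, minus strand) ranged from 48 to 133 CPM in control, 76.3 to 102 with apoE2, 55.1 to 121 with apoE3 and 59.6 to 143 with apoE4. Its blocked differences from control were 0.03, −0.16 and 0.10 with apoE2, apoE3 and apoE4 (lowest adjusted p 0.576, with apoE3), each smaller than the SE of 0.17. Within sets its difference spread the most with apoE2, which was above control by 0.78 in set 3 and below it in the other 3.

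Tubb3, the β-tubulin used to stain neurons (chromosome 8, 123411424 to 123422015, plus strand), held 225, 488, 344 and 408 CPM in control sets 1 to 4 and 322, 569, 520 and 432 with apoE3. The apoE2 libraries held 308, 545, 418 and 363 CPM and the apoE4 libraries 278, 510, 318 and 338. ApoE3 was the highest of the 4 groups in every set. The blocked difference from control was 0.35 with apoE3 (SE 0.10, adjusted p = 0.0408; without the block 0.33, SE 0.26, adjusted p = 0.81), and it was 0.17 with apoE2 (adjusted p = 0.519) and −0.01 with apoE4 (interval −0.23 to 0.21, adjusted p = 0.983). The apoE3 call stood close to the threshold and was lost in 12 of 23 alternatives: without set 1, 2 or 3, without any 1 of control replicates 1 to 3, apoE2 replicates 2 and 3 or apoE3 replicates 1, 3 and 4, and with the 4 features over 1% of any library left out (adjusted p 0.0535 to 0.213). For apoE4 against apoE3, Tubb3 was at −0.36 (interval −0.58 to −0.14, adjusted p = 0.104), lower in 4 of 4 sets, a difference that did not pass in edgeR but did in DESeq2 with the block (−0.35, SE 0.11, adjusted p = 0.0291).

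Promoters are given for Tubb3, the 1 member of the 3 called whose start site is in the RefSeq table used (GRCm38.p6), and for Map1b and Ina, which did not pass, so that the windows can be read beside the values. Each is 300 bases, 250 before and 50 after the start site, and capitals mark TATAA, the core of a TATA box, and GGGCGG, the GC box bound by Sp1-type factors, on either strand, with overlapping matches joined.
Tubb3 (chr8:123411303-123411602, plus strand): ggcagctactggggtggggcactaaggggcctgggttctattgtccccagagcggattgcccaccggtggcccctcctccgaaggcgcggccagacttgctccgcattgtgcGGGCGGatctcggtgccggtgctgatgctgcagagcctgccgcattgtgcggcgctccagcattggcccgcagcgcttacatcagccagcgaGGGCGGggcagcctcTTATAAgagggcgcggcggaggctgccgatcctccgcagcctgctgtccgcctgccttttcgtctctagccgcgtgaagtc
Map1b (chr13:99516553-99516852, minus strand): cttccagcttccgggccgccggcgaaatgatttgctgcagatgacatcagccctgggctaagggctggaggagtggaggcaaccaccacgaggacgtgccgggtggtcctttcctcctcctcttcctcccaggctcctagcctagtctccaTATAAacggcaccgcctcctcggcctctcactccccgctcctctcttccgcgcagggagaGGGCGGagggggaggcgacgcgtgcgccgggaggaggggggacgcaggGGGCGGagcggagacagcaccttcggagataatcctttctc
Ina (chr19:47014431-47014730, plus strand): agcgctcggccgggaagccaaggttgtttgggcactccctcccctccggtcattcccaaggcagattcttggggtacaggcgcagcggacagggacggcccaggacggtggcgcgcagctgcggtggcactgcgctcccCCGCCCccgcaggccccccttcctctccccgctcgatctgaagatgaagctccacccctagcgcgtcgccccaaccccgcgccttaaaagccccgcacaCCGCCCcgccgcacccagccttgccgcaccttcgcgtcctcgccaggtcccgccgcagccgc
The Tubb3 window has a TATAA match on each strand, overlapping, that begins 31 bases before the start site, and 2 GC boxes. The Map1b window has 1 TATAA match, 99 bases before the start site, and 2 GC boxes, and the Ina window has 2 GC boxes and no TATAA. Of 32851 promoter windows of the same length in the table, 24.9% held TATAA and 35.7% held GGGCGG. A match is a description of the letters and not of a factor bound there. Of the 10 members, 5 had a promoter in the table.

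Map2, the dendritic microtubule protein (chromosome 1, 66175273 to 66442583, plus strand), had 1910, 2088, 2490 and 1595 CPM in control sets 1 to 4 and 2018, 2293, 3108 and 2039 with apoE2. With apoE3 it had 1711, 2179, 2542 and 1149 CPM, and with apoE4 1866, 2502, 2346 and 1328. ApoE2 was above control in 4 of 4 sets, by 0.23 on the log2 scale with the block (interval −0.03 to 0.49, adjusted p = 0.466), and above apoE3 in 4 of 4 (apoE3 against apoE2 −0.36, interval −0.62 to −0.10, adjusted p = 0.167). Neither passed the test. The difference from control was −0.13 with apoE3 and −0.03 with apoE4 (adjusted p 0.53 and 0.94). Map1b (chromosome 13, 99421446 to 99516540, minus strand) ranged from 1247 to 1493 CPM in control, 1184 to 1748 with apoE2, 961 to 1524 with apoE3 and 1145 to 1663 with apoE4. Its blocked differences from control were 0.08, −0.05 and 0.12 with an SE of 0.13 (adjusted p 0.864, 0.824 and 0.685). The 95% intervals of both MAP genes in the 3 comparisons with control stayed between −0.39 and 0.49.

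Nefl, the light chain on which neurofilament assembly depends (chromosome 14, 68083863 to 68089095, plus strand), was the 1 member called lower against control. Its CPM in sets 1 to 4 were 483, 587, 1150 and 436 in control, 426, 505, 791 and 377 with apoE2, 335, 576, 795 and 291 with apoE3, and 376, 620, 1072 and 401 with apoE4. ApoE2 and apoE3 were each below control in 4 of 4 sets, and set 3 was the highest in all groups. With the block, Nefl was 1.33-fold lower with apoE3 (log2 −0.41, SE 0.11, adjusted p = 0.0238), by 0.53, 0.03, 0.53 and 0.58 on the log2 scale, least of all in set 2. Without the block the difference was −0.41 with an SE of 0.42 (adjusted p = 0.824). The call was lost without set 1, 3 or 4 and without any 1 of the control or apoE3 libraries of those sets (adjusted p 0.067 to 0.147). With apoE2 it was −0.28 (interval −0.51 to −0.05, adjusted p = 0.244), with apoE4 −0.12 (interval −0.36 to 0.11, adjusted p = 0.606), and for apoE4 against apoE3 0.29 (interval 0.06 to 0.52, adjusted p = 0.2).

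Nefm, the medium chain (chromosome 14, 68082590 to 68124846, minus strand), had 74.7, 62.8, 126 and 54.8 CPM in control, 55.2, 57.2, 103 and 47.8 with apoE2, 47.3, 71.4, 93.7 and 43.9 with apoE3, and 69.5, 79, 136 and 46.6 with apoE4. It followed Nefl closely over the libraries but did not pass with apoE3 (−0.30, interval −0.54 to −0.06, adjusted p = 0.0924, lower in 3 of 4 sets) or with apoE2 (−0.27, adjusted p = 0.291, lower in 4 of 4). For apoE4 against apoE3 Nefm was at 0.33 (interval 0.09 to 0.56, adjusted p = 0.162), higher in 4 of 4 sets. The 2 genes are neighbours on opposite strands, and 1108 exon bases of the GENCODE M21 models, 32.8% of those of Nefl and 19.2% of those of Nefm, lie over each other. Whether the counting used strand is not given in the sources used here, so reads there may have been dropped or shared, and both values are uncertain to that extent.

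Nefh, the heavy chain of mature axons (chromosome 11, 4938754 to 4948064, minus strand), ranged from 37.8 to 48.5 CPM in control, 26.3 to 59.5 with apoE2, 25.9 to 49.1 with apoE3 and 35.2 to 48.4 with apoE4. Its blocked differences from control were −0.15, −0.22 and 0.00 with apoE2, apoE3 and apoE4 (SE 0.14, adjusted p 0.736, 0.351 and 1.00). Ina, α-internexin (chromosome 19, 47014698 to 47025327, plus strand), was the steadiest member, at 95.6 to 124 CPM in control, 101 to 122 with apoE2, 82.9 to 116 with apoE3 and 99.9 to 120 with apoE4. Its value with apoE3 was −0.23 against control (adjusted p = 0.134, lower in 3 of 4 sets) and −0.26 against apoE2 (adjusted p = 0.197, lower in 4 of 4). Of its exon bases 14.1% lie over Nt5c2 on the opposite strand. None of the 4 filament genes had a blocked value above 0 with apoE3, and 1 of 4 passed.

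The ratio of 2 members within a library does not depend on the scaling of libraries. The ratios of Gap43 and Tubb3 to Nefl are given because these members were called with apoE3. Higher ratios there are thus no further evidence and do not say which gene differed. The ratio of Nefm to Nefl is given as well, though Nefm was not called. The ratio of Gap43 to Nefl in CPM was 0.423, 0.698, 0.368 and 0.856 in control sets 1 to 4 (mean 0.586 ± 0.231, SD, n = 4). With apoE3 it was 1.04, 1.01, 0.779 and 1.42 (1.06 ± 0.266), above control in 4 of 4 sets. With apoE2 it averaged 0.81 ± 0.248, also above control in 4 of 4 sets, and with apoE4 0.605 ± 0.224, above it in 2 of 4. The ratio of Tubb3 to Nefl was 0.633 ± 0.301 in control, 0.823 ± 0.246 with apoE2, 1.02 ± 0.344 with apoE3 and 0.675 ± 0.256 with apoE4, above control in 4, 4 and 1 of 4 sets. These ratios combine members already compared and were not tested again. The ratio of Nefm to Nefl, which shares the uncertain exon bases, was 0.124 ± 0.0218 in control and 0.125 to 0.139 on average in the other groups.

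Cell type markers also differed between the groups within sets. Without the block, edgeR passed 0 of the 53 marker genes tested in all 6 comparisons, with 1 or 2 at an unadjusted p under 0.05 in each, and DESeq2 passed 1, Top2a, in each of apoE2 against control, apoE3 against control and apoE4 against apoE3. All calls of marker genes below are from the fit with the block. In that fit 7.95% of all genes passed as higher and 3.73% as lower with apoE3. As higher, 200 of 17038 genes passed with apoE2 and 541 with apoE4. The astrocyte markers summed to 1428 to 3213 CPM (median 2332) in control, 1329 to 3205 (2988) with apoE2, 1718 to 6687 (3914) with apoE3 and 1588 to 5445 (3601) with apoE4, above control in 4 of 4 sets with apoE3 and with apoE4. With the block, 9 of 10 of them passed as higher with apoE3 and 4 of 10 with apoE4, among them Gfap, the astrocyte intermediate filament, at 1831 CPM with apoE3 against 648 in control. The oligodendrocyte lineage list passed 3 of 8 genes as higher with apoE3 and 1 with apoE4, and the list of mural, fibroblast and endothelial cells 1 of 7 tested with each of the 2, with sums of 17.6 to 232 CPM in control and 15.7 to 458 with apoE3. Microglial markers summed to 5.82 to 24.8 CPM in control and 6.93 to 29 with apoE3, and 0 of 6 passed. Tmem119 of microglia and Cldn5 of endothelium were at 0 in 1 library each.

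The neuronal list without the members summed to 2136 to 4181 CPM (median 3442) in control and 1382 to 3926 (2968) with apoE3, below control in 4 of 4 sets. With apoE2 it summed to 2083 to 3872 CPM (3083), also below control in 4 of 4 sets, and with apoE4 to 1721 to 4086 (3258), below it in 3 of 4. With the block, 2 of its 7 genes passed as lower with apoE3, Eno2 (476 against 587 CPM) and Snap25 (891 against 1088 CPM), and 0 of 7 with apoE2 or apoE4. Of all genes, 3.73% passed as lower with apoE3. In the same fit the inhibitory neuron list passed 2 of 5 as lower with apoE3 (Gad1 and Dlx1), and the excitatory list 0 of 4. The lower Nefl with apoE3 thus stood beside lower neuronal markers, while Gap43 and Tubb3 were higher beside the same values. The dividing cell list summed to 7.48 to 18.2 CPM in control, 19.6 to 29.2 with apoE2, 26.7 to 40.7 with apoE3 and 12.3 to 29.8 with apoE4, above control in 4 of 4 sets with each isoform. With the block, 1 of its 6 genes passed with apoE2 and with apoE3, Top2a at 14.7 and 23.4 against 4.16 CPM, and 0 passed with apoE4. The part of these shifts in the members' values was not tested.

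**Figure D4:**
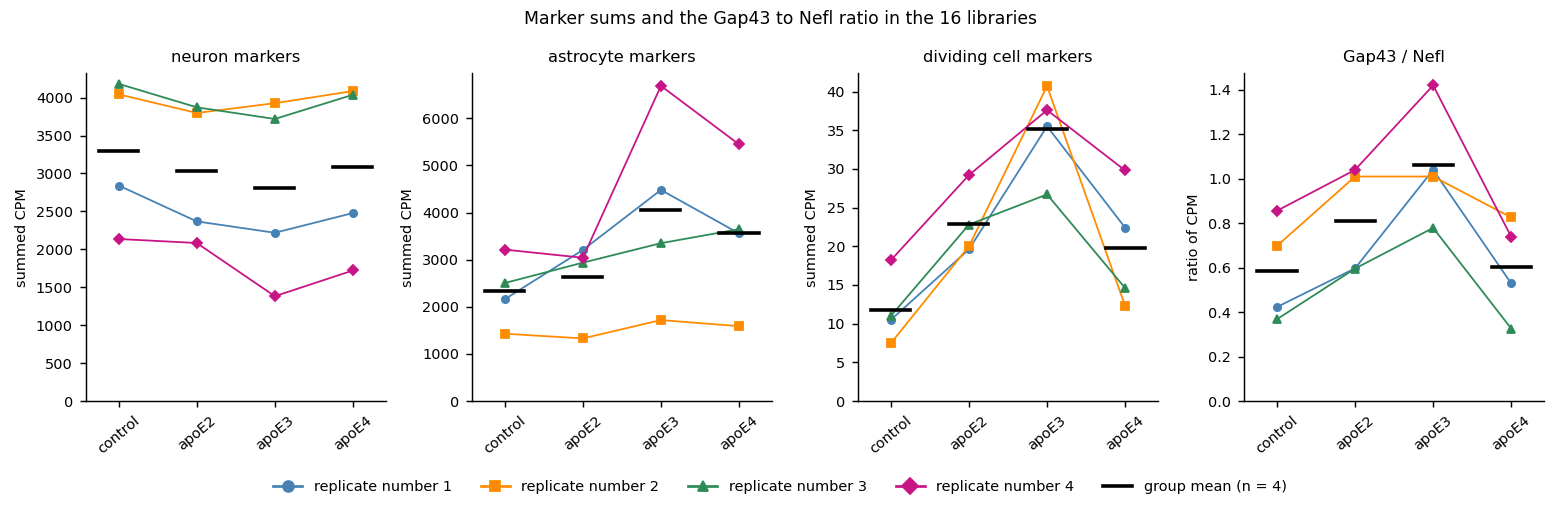
Summed CPM of neuron, astrocyte and dividing cell markers and the ratio of Gap43 to Nefl, with lines joining libraries of 1 replicate number and bars for group means (n = 4). Astrocyte sums and the ratio are above control in all 4 sets with apoE3, the neuron sum is below it in all 4 with apoE2 and apoE3, and the dividing cell sum is above it in all 4 with each isoform.

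Around the members, 83 further genes of the cytoskeleton and of growth were read in 9 lists, and all were tested. Without the block 0 of 83 passed in any comparison (DESeq2 passed 2 with apoE3, beside 60 of all 17038 genes, and 0 elsewhere). With the block, 16 of 83 (19.3%) passed with apoE3 against control, 14 higher and 2 lower, beside 11.7% of all genes. The count was 7 without control replicate 1, 9 without apoE3 replicate 1, 10 without apoE3 replicate 3 or 4, 5 without set 1, 7 without set 3, and 5 to 23 over all sets and libraries left out. Against control, 3 of 83 (3.61%) passed for apoE2 beside 1.73% of all genes, and 5 (6.02%) for apoE4 beside 3.3%. Between isoforms, 5 (6.02%) passed for apoE4 against apoE3 beside 1.77%, 4 (4.82%) for apoE4 against apoE2 beside 4.44%, and 4 (4.82%) for apoE3 against apoE2 beside 1.31%. These 5 counts also moved with single libraries, and each fell to 0 or 1 without some library or set. For apoE2 against control the count was 0 to 10, with 0 without apoE2 replicate 3, 1 without apoE2 replicate 2 or any 1 of control replicates 1 to 3, 5 without apoE3 replicate 2 and 10 without apoE2 replicate 4. For apoE4 against control it was 0 to 5, with 0 without set 1, 1 without control replicate 1 or 4 or apoE4 replicate 4, and 3 without control replicate 3, apoE2 replicate 2 or apoE4 replicate 1. For apoE4 against apoE3 it was 0 to 8, with 0 without apoE3 replicate 1 or 3 or apoE4 replicate 3, 1 without apoE4 replicate 1, 8 without apoE2 replicate 4, and 2 or 3 without 9 other single libraries. For apoE4 against apoE2 it was 1 to 10, with 1 without set 3, 2 without control replicate 3, apoE2 replicate 2 or apoE4 replicate 3 or 4, 7 without apoE3 replicate 4 and 10 without apoE4 replicate 2. For apoE3 against apoE2 it was 0 to 6, with 0 without apoE2 replicate 2 or 4 or apoE3 replicate 1 or 3, and 2 without 7 other single libraries. The median log2 difference over the 83 with apoE3 was 0.04, against 0.01 over all genes.

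Tubulins other than Tubb3 all had values above 0 with apoE3, and 4 of 10 passed as higher, with a list median of 0.35. Tuba1b was at 79.5 ± 8.06 CPM against 53.6 ± 9.55 in control (log2 0.57, adjusted p = 0.00449), Tuba1a, the main neuronal α-tubulin, at 1811 ± 375 against 1337 ± 358 (0.46, adjusted p = 0.0134), Tubb4b at 296 ± 56.4 against 229 ± 60.5 (0.38, adjusted p = 0.0348) and Tubb6 at 24.8 ± 14.2 against 12.3 ± 4.17 (0.87, adjusted p = 0.0204). Tuba1a was also lower with apoE4 than with apoE3 (−0.45, adjusted p = 0.0497). With apoE2 or apoE4 against control, 0 of 10 passed, at medians of 0.22 and 0.05. Some tubulin genes are close in sequence within the α or the β family, and how reads shared between copies affected these counts was not tested.

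The remaining microtubule and growth cone lists gave few calls. Of 16 other microtubule-associated proteins 1 passed with apoE3 and with apoE4, Mapre1 (EB1, which tracks growing microtubule ends), at 206 and 220 against 170 CPM. Of 10 motors 1 passed with apoE3, the kinesin gene Kif21b (161 against 125 CPM). Stathmins and CRMPs (8 genes) and other growth cone membrane proteins (8 genes) passed 0 with each isoform against control, where Dpysl5 and Gpm6a had the smallest p of their lists, at 0.38 with apoE2 (adjusted p = 0.221) and −0.32 with apoE3 (adjusted p = 0.0794). Between isoforms, 1 of these 16 genes passed, Crmp1 of the stathmin and CRMP list, which was lower with apoE4 than with apoE2 (308 against 400 CPM, −0.39, SE 0.10, adjusted p = 0.036). All 8 genes of that list had values below 0 in this comparison, with a median of −0.28.

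Among other intermediate filaments, 2 of 7 passed as higher with apoE3 and with apoE4, and both are filaments of glia and progenitors. Vim (vimentin) was at 1488 ± 1254 CPM with apoE3 and 1092 ± 966 with apoE4 against 541 ± 387 in control, higher in 4 of 4 sets each (log2 1.27 and 0.84, adjusted p 5.85e-04 and 0.0123). Nes (nestin) was at 266 ± 186 and 187 ± 108 against 117 ± 63.2 CPM (1.03 and 0.63, adjusted p 0.00151 and 0.0434). In the spectrin and ankyrin skeleton, Sptb, a β-spectrin, was lower with apoE3 (95.9 ± 31.5 against 152 ± 27.7 CPM, −0.70, adjusted p = 0.00482) and higher with apoE4 than with apoE3 (0.57, adjusted p = 0.0464). Nfasc, the adhesion protein of the axon initial segment and node, was higher with apoE3 and apoE4 (197 ± 20.2 and 195 ± 39.5 against 141 ± 10.7 CPM, adjusted p 0.0113 and 0.0349).

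Of 10 actin genes, Tmsb4x, the actin monomer binder thymosin β4, was higher with apoE2 and apoE3 and not with apoE4: 1976 ± 297 and 1963 ± 258 CPM against 1429 ± 218 in control (0.47 and 0.46, adjusted p 0.0358 and 0.0109) and 1319 ± 277 with apoE4 (−0.12, adjusted p = 0.605). Its difference between apoE4 and apoE3 (−0.58, adjusted p = 0.00906) and between apoE4 and apoE2 (−0.59, adjusted p = 0.00501) also passed. Pfn1 was higher (133 against 108 CPM, adjusted p = 0.049) and Dbn1, the dendritic spine protein drebrin, lower with apoE3 (224 against 272 CPM, adjusted p = 0.0272).

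Of 7 transcription factors linked to axon growth, 3 passed with apoE3, all higher. Stat3 was higher with all 3 isoforms, at 187 ± 42.6, 251 ± 42.4 and 190 ± 47.4 CPM with apoE2, apoE3 and apoE4 against 134 ± 40.2 (0.49, 0.94 and 0.52, adjusted p 0.0126, 4.99e-05 and 0.00391), higher in 4 of 4 sets each, and lower with apoE4 than with apoE3 (−0.42, adjusted p = 0.0253). Sox4 (28 against 16.9 CPM, adjusted p = 0.00551) and Klf6 (78.4 against 61 CPM, adjusted p = 0.00962) were higher with apoE3. Sox11, a factor of immature neurons, was lower with apoE2 (39.7 ± 12.8 against 64.8 ± 22 CPM, −0.71, adjusted p = 0.0157) and higher with apoE4 than with apoE2 or apoE3 (0.85 and 0.56, adjusted p 0.00218 and 0.0472). Beside these values, also with the block, 0 of 10 astrocyte markers passed as higher with apoE2, 9 with apoE3 and 4 with apoE4, and their part in the values of Stat3, Vim and Nes was not tested.

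**Figure D5:**
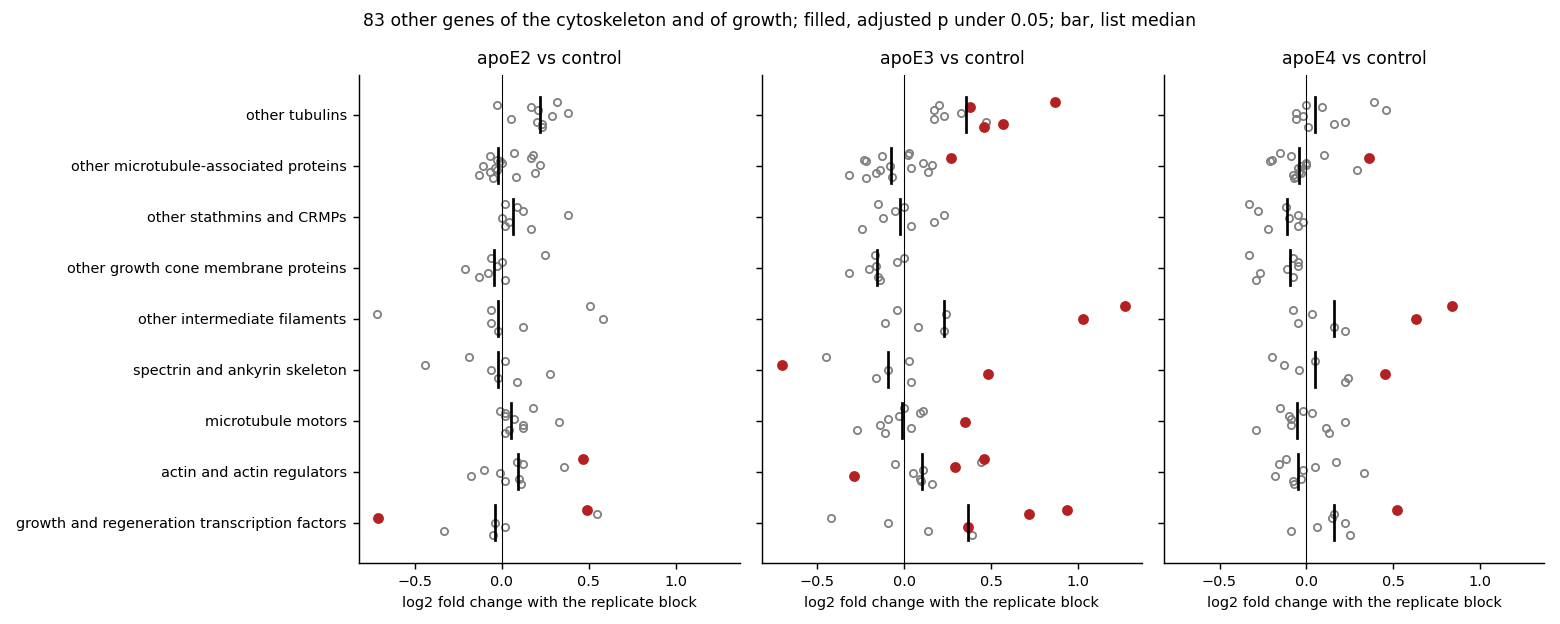
log2 fold change against control, fitted with the replicate block, of the 83 other cytoskeletal and growth genes in 9 lists (points; filled where the adjusted p is under 0.05) with list medians (bars). Filled points number 3, 16 and 5 with apoE2, apoE3 and apoE4, and the tubulins lie to the right of 0 with apoE3.

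Likeness of pattern was measured as the root mean square difference of centred log2 CPM over the 16 libraries. The nearest non-member of both Gap43 and Tubb3 was Tuba1a, at 0.207 and 0.138, against a median of 0.59 and 0.511 over all genes. The closest pair of members was Ina and Map1b (0.174), which varied little over the libraries, followed by Nefl and Nefm (0.195) and Gap43 and Tubb3 (0.205), whereas Nefl and Dcx were farthest apart (0.919). Nearest to Nefl was D630023F18Rik (0.16), to Nefm Mapk11 (0.162), to Nefh Kcnh2 (0.146) and to Ina Cep295 (0.0917). Nearest to Map2 was Atrn (0.0991), to Map1b Pcnx (0.0859), to Dcx Faap100 (0.193) and to Stmn2 Ttc9b (0.181). These distances include the differences between sets, which are the larger part of the variation for most members.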

How the data were processed

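Gene-level RNA-seq counts were deposited for 16 libraries of primary mouse hippocampal neurons, 4 per group. The authors depleted ribosomal RNA, aligned the reads to mm10 with STAR and made the counts with HTSeq; which annotation and which strand setting were used is not given in the sources used here. The deposited values are whole-number counts per symbol (48397 symbols), and rows that name no gene were kept out of library sizes. Gene counts per library ran from 14087723 to 34248172.

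The sample titles gave the group and replicate number of each library. The counts were tested with edgeR 4.0.16 in R 4.3.3 (TMM, filterByExpr by group, quasi-likelihood fit of all 16 libraries with 1 coefficient per group). P-values were adjusted over 17038 genes by Benjamini-Hochberg, at a threshold of 0.05. Standard errors are Wald errors from the same fit with its moderated quasi-dispersion, and intervals are 95%. The code was tested on simulated data. The study describes 4 independent cultures per group. Deviations from the group means of libraries with the same replicate number correlated at 0.362 to 0.831 in all 24 pairs (across 17038 genes). Pairs of different numbers and groups correlated at −0.736 to 0.569. Sets 2, 3 and 4 lay above that range, at 0.766 to 0.831, 0.62 to 0.671 and 0.681 to 0.79. Set 1, at 0.362 to 0.552, lay within it, so these correlations do not show its pairing. The fit with the number as a block is given where it changed a call. The common dispersion was 0.132 without and 0.0178 with the block. CPM in the text are on TMM-scaled library sizes, and log2 CPM used a prior count of 2.

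The members and the lists of 83 further genes and of cell type markers were chosen with earlier results of these data known. Beyond the members, the text names, of each list, at most 4 genes that passed in a comparison with control (those of smallest blocked p), or else the gene of smallest blocked p, and the nearest non-member of each member. The marker genes named for passing, and Crmp1, were chosen after their values were seen. Alternatives were DESeq2 1.42.0 (size factors or test), no filter, a filter of 1 CPM in 8 libraries, only the 2 groups compared, the block, leaving out the 4 features over 1% of any library, and leaving out each library or set. Overlaps and exon lengths come from GENCODE M21, and promoters from RefSeq (GRCm38.p6).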

Additional observations from a re-analysis of the deposited data

Results flagged for a closer look

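Nefm in the apoE2 group had 1 library far from the others, replicate 3 at 103 CPM beside 47.8, 55.2 and 57.2 CPM. Of 40 group and member combinations checked in this way, about 1 in 20 would be flagged by chance. Set 3 was the highest for Nefm in each of the other groups as well, and the within-set difference from control in set 3 was −0.29, between those of the other sets. Gap43 differed between the apoE4 and apoE3 groups with the replicate block, by −0.57 on the log2 scale (edgeR adjusted p = 0.014). That call was lost without set 1 or set 3, as given above, where the difference was −0.50 and −0.49. Without the block the difference was −0.54 and was not called.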

How the results depend on the processing

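Without the block, 49 of the 60 member values lay within 1 SE of 0. None of the 6 member counts without the block moved from 0 under another normalization, filter, tool, choice of groups or with any library left out. Leaving out 1 library at a time without the block, the log2 difference changed sign for 31 of 60 member values, none of them called. In apoE2 against control the ranges were −0.62 to 0.07 for Nefl, −0.59 to 0.04 for Nefm, −0.35 to 0.04 for Nefh, −0.04 to 0.09 for Ina, −0.04 to 0.17 for Map1b, −0.02 to 0.33 for Tubb3 and −0.27 to 0.20 for Dcx. In apoE3 against control the ranges were −0.27 to 0.09 for Map2, −0.12 to 0.09 for Map1b and −0.46 to 0.08 for Dcx. In apoE4 against control the ranges were −0.51 to 0.30 for Nefl, −0.29 to 0.37 for Nefm, −0.10 to 0.03 for Ina, −0.13 to 0.14 for Map2, −0.24 to 0.15 for Tubb3, −0.18 to 0.35 for Dcx, −0.21 to 0.03 for Stmn2 and −0.32 to 0.13 for Gap43. In apoE4 against apoE3 the ranges were −0.10 to 0.62 for Nefl and −0.10 to 0.26 for Map2. In apoE4 against apoE2 the ranges were −0.17 to 0.51 for Nefl, −0.02 to 0.64 for Nefm, −0.06 to 0.35 for Nefh, −0.03 to 0.16 for Map1b and −0.12 to 0.32 for Dcx. In apoE3 against apoE2 the ranges were −0.39 to 0.21 for Nefl, −0.28 to 0.27 for Nefm, −0.25 to 0.16 for Nefh, −0.20 to 0.01 for Map1b, −0.39 to 0.02 for Dcx and −0.01 to 0.30 for Stmn2. 

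With the replicate block the member count went from 0 to 3 in apoE3 against control and from 0 to 1 in apoE4 against apoE3, and the count of the 83 further genes from 0 to 16 (apoE3), 3 (apoE2) and 5 (apoE4) against control, 5 in apoE4 against apoE3, 4 in apoE4 against apoE2 and 4 in apoE3 against apoE2. Dcx in apoE2 against control changed from −0.06 to 0.03. The block changed no other member call. DESeq2's test without the block passed 2 of the 83 with apoE3. Alternatives to the blocked fit other than leaving out whole sets were chosen after seeing the data. DESeq2's test with the block gave 2 members in apoE4 against apoE3 (Gap43 and Tubb3), and 9, 10, 10 and 8 of the 83 in apoE2 against control, apoE4 against apoE3, apoE4 against apoE2 and apoE3 against apoE2. It also passed more of all 17038 genes in these comparisons, at 709, 703, 1242 and 726, where edgeR with the block passed 294, 301, 757 and 224. With the block and without the 4 features over 1%, 3 of the 83 passed in apoE4 against apoE3 and 2 in apoE4 against apoE2. Leaving out a set or a library from the blocked fit gave 0 to 4 members in apoE3 against control, 0 to 2 in apoE4 against apoE3 and 0 to 1 in apoE4 against apoE2. For the 83 it gave 0 to 10 in apoE2, 5 to 23 in apoE3 and 0 to 5 in apoE4 against control, 0 to 8 in apoE4 against apoE3, 1 to 10 in apoE4 against apoE2 and 0 to 6 in apoE3 against apoE2; the cause was not tested. Fewer libraries also leave fewer degrees of freedom. The 4 called member values kept their sign in all 23 alternatives each and lost the call in 4 (Gap43) to 12 (Tubb3) of them with apoE3 and in 7 for Gap43 in apoE4 against apoE3. The lowest count of a member in a library was 395, and no fit at matched depth was run.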
